A study of Mus musculus with 5 samples.

Results

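Cells that accumulate misfolded proteins in the endoplasmic reticulum (ER) or run short of amino acids respond through 2 overlapping programmes, and 36 genes of these programmes were examined in C2C12, a mouse cell line of myoblasts, the precursors of muscle fibres. The genes were taken by symbol from a deposited table of 12615 genes, in which all 36 were found, and all 36 passed the filter of a mean of at least 10 normalized counts. They fall into 15 ER chaperones and quality control genes, 4 stress sensors with their transcription factors, 7 regulators around the transcription factor ATF4, and 10 enzymes and transporters that ATF4 is known to induce.

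The comparison has 2 samples labelled miR-16 knockdown and 3 samples with an empty control vector (pCMVmiR), all of C2C12 myoblasts kept in serum-containing growth medium and transfected for 5 hours. The series compares gene expression between these groups. The labels call the first group a knockdown, yet their treatment text names a miR-16-1 plasmid. The authors' deposited tables call the comparison inhibition against control. Mature miR-16 was not measured here, so the direction is taken from these names. Separate cultures are not stated for the replicates, and the p-values may therefore reflect technical spread only.

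As background, ER chaperones fold secreted and membrane proteins, and their genes are induced by the factors ATF6 and XBP1 through the ER stress response element (ERSE) when the sensors ATF6, IRE1 and PERK detect unfolded protein. PERK and the amino acid sensor GCN2 phosphorylate the initiation factor eIF2, which lowers general translation and raises that of ATF4. ATF4, with C/EBP partners, then binds C/EBP-ATF response elements (CARE) and induces genes for amino acid synthesis, amino acid uptake and feedback control. In muscle, signalling through the unfolded protein sensors is known to operate while myoblasts differentiate. The microRNA miR-16 binds sites in 3' UTRs that pair with its seed and lowers the level or translation of the bound messenger RNA.

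The sequences below show the elements through which the factors of each programme are known to act, in promoters from RefSeq (build GRCm38.p6), 5' to 3', over the 250 bases before the start of transcription. Of the 36 genes, 32 had an entry, of which Psat1 and Vldlr had 2 starts each, and Manf, Hyou1, Atf6 and Slc7a5 had none. A gene counts as holding an element if any of its windows does. The search covered these and the next 50 bases. Capitals in the first 2 mark the ERSE, searched on both strands as CCAAT and CCACG with any 9 bases between them.
Hspa5 promoter, chr2:34771840-34772089, plus strand: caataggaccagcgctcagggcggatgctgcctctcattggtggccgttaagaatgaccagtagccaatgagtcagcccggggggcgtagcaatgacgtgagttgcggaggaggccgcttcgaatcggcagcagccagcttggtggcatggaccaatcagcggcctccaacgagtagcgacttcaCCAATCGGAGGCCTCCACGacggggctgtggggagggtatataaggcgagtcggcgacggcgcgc
Hsp90b1 promoter, chr10:86705445-86705694, minus strand: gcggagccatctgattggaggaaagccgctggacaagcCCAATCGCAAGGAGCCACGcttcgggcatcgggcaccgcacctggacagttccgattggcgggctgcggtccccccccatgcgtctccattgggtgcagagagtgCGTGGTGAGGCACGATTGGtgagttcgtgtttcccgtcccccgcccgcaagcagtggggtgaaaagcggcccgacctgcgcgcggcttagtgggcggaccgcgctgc

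Capitals in the next 3 mark the CARE core, searched as TGATGNAA on both strands, or the longer CARE words TGATGCAAT, TGATGTAAT and TGATGAAAT, which overlap the core. The core was chosen after the promoters had been seen.
Slc7a11 promoter, chr3:50443614-50443863, minus strand: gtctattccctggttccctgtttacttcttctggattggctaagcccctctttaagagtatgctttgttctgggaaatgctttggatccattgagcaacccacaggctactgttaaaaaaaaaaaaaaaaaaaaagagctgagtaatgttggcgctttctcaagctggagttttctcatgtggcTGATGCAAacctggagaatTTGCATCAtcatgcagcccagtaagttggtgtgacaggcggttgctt
Asns promoter, chr6:7693210-7693459, minus strand: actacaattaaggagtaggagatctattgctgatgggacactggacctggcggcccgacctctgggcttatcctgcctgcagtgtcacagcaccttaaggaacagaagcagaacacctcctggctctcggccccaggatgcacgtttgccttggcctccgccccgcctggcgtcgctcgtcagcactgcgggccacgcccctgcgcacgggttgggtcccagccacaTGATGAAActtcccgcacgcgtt
Nupr1 promoter, chr7:126625471-126625720, minus strand: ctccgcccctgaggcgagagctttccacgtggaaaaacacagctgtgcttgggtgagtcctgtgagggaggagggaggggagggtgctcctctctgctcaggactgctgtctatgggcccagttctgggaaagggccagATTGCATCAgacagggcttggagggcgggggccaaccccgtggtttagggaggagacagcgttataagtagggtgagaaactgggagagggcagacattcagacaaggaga

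The mature miRNA is the same for both miR-16 genes, at chr14:61631936-61631957 on the minus strand and chr3:69009918-69009939 on the plus strand of GRCm38.p6. The sequence is from RefSeq, and its seed, bases 2 to 8, is in capitals.
miR-16-5p: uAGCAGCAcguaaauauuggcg

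The ERSE stood in 7 of the 13 chaperone genes with a promoter (53.8%) and in none of those of the other 3 lists. Of 9610 tested genes with a promoter, 16 held it (0.166%), and of all 27025 genes with a promoter 37 did (0.137%). Its first base lay 65 bases before the start in Hspa5, 212 and 107 in Hsp90b1, 162 in Calr, 145 in Canx, 98 in Pdia6, 105 in Dnajc3 and 126 in Creld2. The shorter UPRE core TGACGTGG, the element known for XBP1, was in none of the members' windows and in 1.05% of those of tested genes.

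The CARE core lay mostly in promoters of the ATF4 axis. It stood in 4 of 9 ATF4 target genes with a promoter (44.4%), in 3 of 7 regulators (42.9%) and in 1 of 13 chaperones (7.69%), against 2.56% of tested genes and 4.51% of all genes with a promoter. Asns held it 23 bases before the start, Chac1 193, Vldlr 200 (before 1 of its 2 starts), Atf3 and Nupr1 110 and Herpud1 112, Slc7a11 held it at 66 and 47 bases, and in Trib3 it lay 14 bases after the start. Of the 3 longer CARE words, Nupr1 held one, as did 0.395% of tested genes. A match of letters is a description of the window and not a measured binding site.

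The deposited values look like read counts divided by a size factor for each sample and are called normalized counts here. Depth estimated on that reading was 15.2 and 17.0 M reads in the knockdown samples and 15.4 to 20.1 M in the empty vector samples. The column names hold a run code, read here as the flow cell. Both knockdown samples and empty vector 2 share a code (flow cell B), and empty vector 1 and 3 share another (flow cell A). The lane and the series of library numbers in these names split the samples in the same way, so the 3 cannot be told apart. Values against empty vector 2 alone are given as flow cell B values. The 18S ribosomal RNA gene Rn18s took 0.413% and 0.536% of the normalized counts with knockdown, against 0.467% in empty vector 2 and 1.46% and 2.94% in empty vector 1 and 3. All 7 myoblast markers were in the table, with sums of 13082 to 13242 normalized counts with knockdown and 13211 to 13613 with empty vector. Of 12 markers of differentiated muscle 3 were in the table, with sums of 63.8 to 83.0 and 45.4 to 87.6, and of 8 endothelial and blood cell markers only Hba-a1, at 7.15 to 10.7 and 5.64 to 24.5. The part of flow cell, ribosomal RNA or these markers in the differences below was not tested.

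Levels of different genes are set side by side as normalized counts per kb of transcript, on which the chaperones ran from above 60.7% of the tested genes for Dnajb9 to near the top of the table. Calr, the soluble lectin chaperone of the ER, averaged 14481 per kb with knockdown and 15271 per kb with empty vector, above 99.8% of them. Hspa5 followed with 4845 and 5232 per kb, Hsp90b1 with 4540 and 5028 per kb, and Pdia3 with 3742 and 4094 per kb. Of the ATF4 axis, Atf4 itself stood highest, at 3437 and 3252 per kb, ahead of the serine synthesis genes Phgdh (2732 and 2753 per kb) and Psat1 (2126 and 1974 per kb). The sensors Eif2ak3 and Ern1, the regulators Atf3 and Nupr1, and the transporter Slc7a11 were low, between 42.3 and 123 per kb in either group. Vldlr, the very low density lipoprotein receptor gene, was lowest, at 5.00 and 5.11 per kb.

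**Figure D1:**
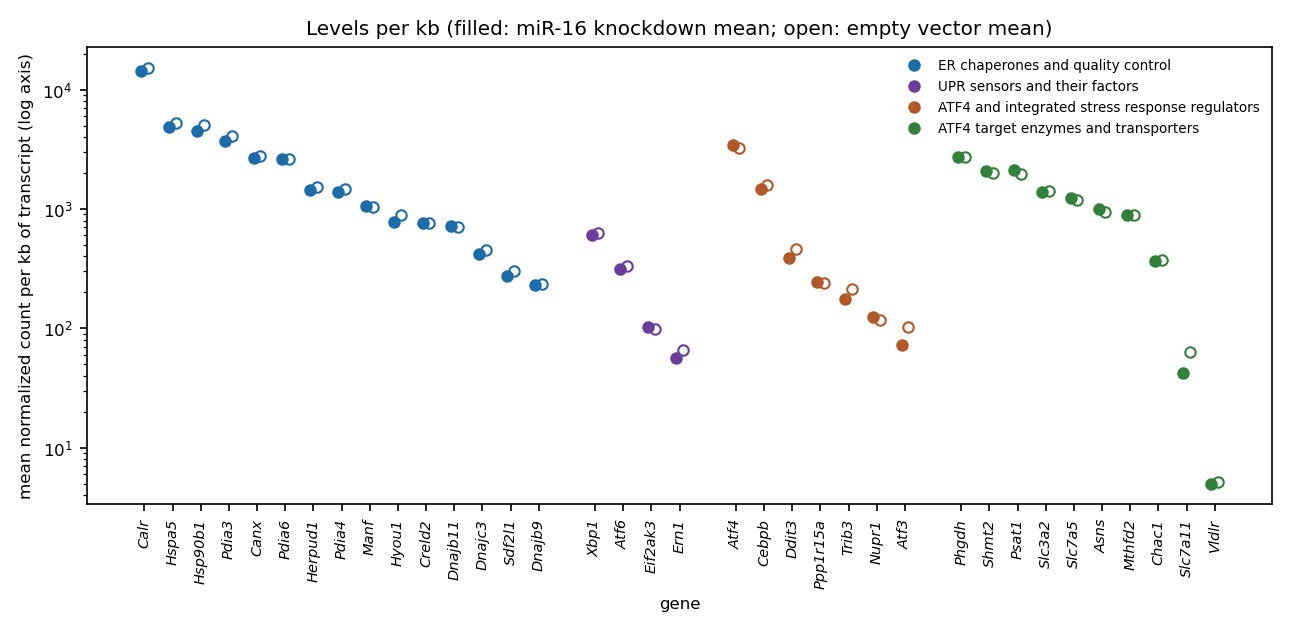
Mean normalized counts per kb of transcript on a log axis for the 36 genes in their 4 role lists, with filled circles for the 2 miR-16 knockdown samples and open circles for the 3 empty vector samples. Within every list the levels span far more than the distance between the groups, from 14481 and 15271 per kb for Calr to 5.00 and 5.11 per kb for Vldlr.

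By limma on log2(normalized count + 1), no member passed an adjusted p of 0.05, and neither did any of the 11990 tested genes (0%). Fold changes of low genes are understated on this scale. At an unadjusted p under 0.05 there were 4 members, Hsp90b1, Hyou1, Atf3 and Slc7a11, all lower with knockdown, where 5.30% of tested genes were lower and 2.83% higher at that level (8.13% in all). In 9 members both knockdown samples lay below all 3 empty vector samples, and in 2 they lay above, where 12.4% and 11.4% of tested genes did so (23.8% in all). A lower amount of RNA per cell and fewer cells of a kind cannot be told apart in such bulk samples. Strand was not given in the sources used here, so reads of an overlapping or antisense gene cannot be told apart from those of a member.

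**Figure D2:**
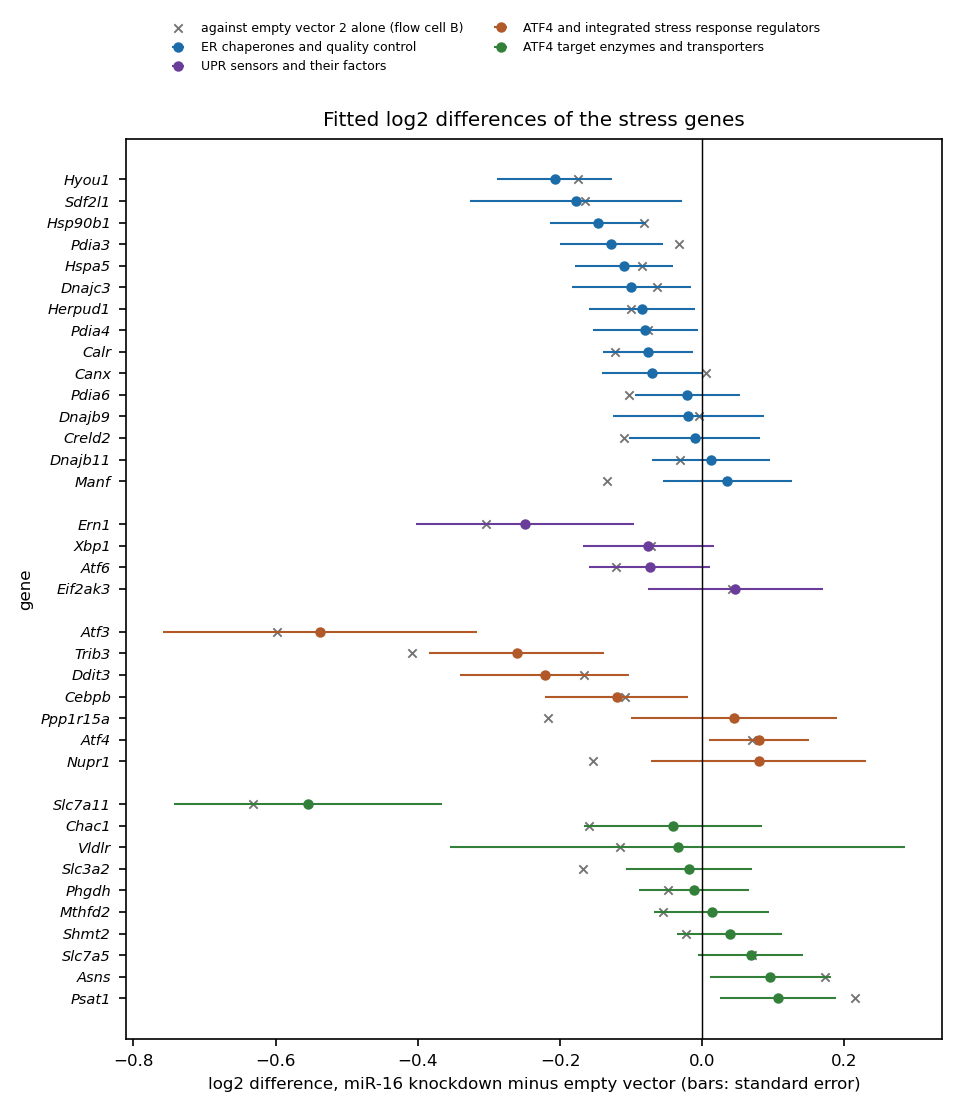
Fitted log2 differences, miR-16 knockdown minus empty vector, with standard errors as bars, for the 36 genes in their role lists, and crosses for the difference against empty vector 2 alone. Most chaperones lie a little left of 0, between -0.21 for Hyou1 and 0.035 for Manf, whereas the ATF4 targets lie on both sides, with Slc7a11 at -0.55.

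Of the 15 chaperones, 13 had a lower mean log2 value with knockdown and 2 a higher one, where 49.8% of tested genes were lower. Their median log2 difference was -0.080, beside 0.00073 for all tested genes. On flow cell B 14 were lower with a median of -0.085, where 6321 of 11990 tested genes were lower with a median of -0.011. With the trend of each sample on transcript length removed all 15 were lower with a median of -0.11, beside 0.0078 for tested genes. Summed over the list, the chaperones took 110419 and 108814 normalized counts in the knockdown samples, against 119306, 116339 and 115558 in the empty vector samples. As a share of all normalized counts this was 0.676% and 0.683%, against 0.723%, 0.714% and 0.701%. Both knockdown sums lay below the 3 empty vector sums, a description of genes chosen with earlier results known and not a test.

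Hspa5 encodes BiP, the Hsp70 chaperone of the ER lumen that also holds the sensors inactive, and it is the usual readout of ER stress. It had 17548 and 18036 normalized counts with knockdown, against 20345, 18874 and 18419 with empty vector. The groups did not overlap, but knockdown 2 and empty vector 3 were close. The log2 difference was -0.11 ± 0.069 (SE), with a 95% interval of -0.26 to 0.037 and a limma adjusted p of 0.707.

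Hsp90b1, the Hsp90 of the ER, had 14777 and 14482 normalized counts with knockdown, against 16584, 15480 and 16534 with empty vector. Both knockdown samples were below every empty vector sample, with empty vector 2, on their own flow cell, the nearest. The log2 difference was -0.15 ± 0.067 (SE) and -0.082 on flow cell B, with a limma adjusted p of 0.602.

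Hyou1, an Hsp110-type nucleotide exchange factor for BiP, had the largest fitted difference of the list over all 5 samples, though Sdf2l1, described below, exceeded it with the length trend removed (-0.31). Hyou1 stood at 3948 and 3681 normalized counts with knockdown, against 4758, 4303 and 4165 with empty vector, without overlap. The log2 difference was -0.21 ± 0.081 (SE), with a 95% interval of -0.38 to -0.035 and a limma adjusted p of 0.565. It was -0.17 on flow cell B, and with the length trend removed -0.15.

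The lectin cycle genes had lower means with knockdown over all 5 samples. Calr had 31994 and 31259 normalized counts with knockdown, against 33506, 34448 and 32100 with empty vector, a log2 difference of -0.076 ± 0.063 (SE; limma adjusted p = 0.784). Calr's groups lay close together without overlapping. Pdia3, the disulfide isomerase that works with the lectins, had 10541 and 10191 against 11591, 10605 and 11827, a log2 difference of -0.13 that was -0.033 on flow cell B. Canx, the membrane-bound lectin, had 11573 and 11141 against 12270, 11314 and 12220, with overlap, and its log2 difference of -0.071 became 0.0052 on flow cell B.

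Among further enzymes and factors, Pdia4, a disulfide isomerase, had 3327 and 3306 normalized counts with knockdown, against 3586, 3497 and 3439 with empty vector. Herpud1, a membrane scaffold of ER-associated degradation, had 2798 and 2814 against 3001, 3008 and 2917. In both genes the groups did not overlap, with log2 differences of -0.080 and -0.085 (limma adjusted p of 0.807 and 0.797). Pdia6, another disulfide isomerase, had 5679 and 5669 against 5616, 6096 and 5574, and its groups overlapped.

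The J-domain co-chaperones of BiP were mixed. Dnajc3 had a log2 difference of -0.10, Dnajb9 of -0.020 and Dnajb11 of 0.012, all with overlapping groups. That of Dnajc3 was -0.016 without knockdown 2 and -0.033 with the length trend removed. Sdf2l1, a partner of Dnajb11, had 254 and 349 normalized counts with knockdown, against 321, 334 and 357 with empty vector, so that its log2 difference of -0.18 rested on knockdown 1 and was 0.050 without that sample. Creld2, an ER protein with isomerase activity, had -0.011, and Manf, a secreted factor of stressed cells, had 0.035, which was -0.13 on flow cell B.

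Of the 4 sensor genes, 3 had lower and 1 a higher mean, with a median log2 difference of -0.075 and overlapping groups in all 4. The median was -0.0055 without knockdown 2, and with the length trend removed it was -0.043 with 2 lower. Xbp1, whose messenger IRE1 splices to its active form, had 1197 and 1364 normalized counts with knockdown, against 1430, 1343 and 1272 with empty vector, a log2 difference of -0.076 (limma adjusted p = 0.850). Gene counts do not separate its spliced and unspliced forms. Ern1, which encodes IRE1, had 463 and 318 against 493, 474 and 406. Its log2 difference of -0.25 ± 0.15 (SE; limma adjusted p = 0.706) rested on knockdown 2 and was 0.020 without it. Atf6 had 2342 and 2206 against 2200, 2473 and 2518, and Eif2ak3, which encodes PERK, had 512 and 414 against 422, 447 and 469. The knockdown values of Atf6 lay inside the empty vector range and those of Eif2ak3 on either side of it.

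**Figure D3:**
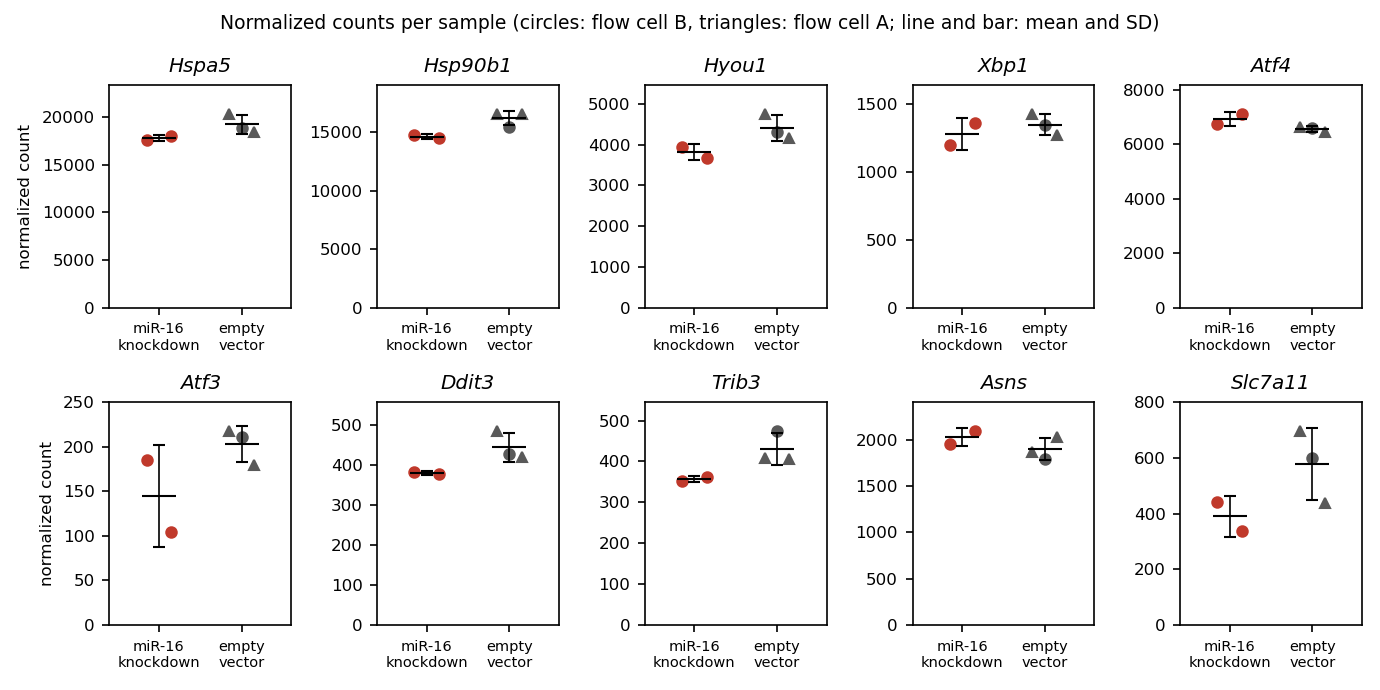
Normalized counts per sample, on axes that start at 0, for 10 members in miR-16 knockdown and empty vector samples, with circles for flow cell B, triangles for flow cell A, and a line and bar for mean and SD. Hspa5, Hsp90b1, Hyou1, Ddit3 and Trib3 have both knockdown points below all 3 empty vector points, Atf4 has them above, and Xbp1, Atf3, Asns and Slc7a11 overlap.

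The regulators were mixed. Of the 7, 4 had a lower and 3 a higher mean with knockdown, with a median log2 difference of -0.12. The median was -0.17 with 6 lower on flow cell B, -0.21 with the length trend removed and -0.069 without knockdown 1. The 3 with the largest differences, Atf3, Trib3 and Ddit3, were lower, as was Cebpb at -0.12. The messengers of Atf4, Nupr1 and Ppp1r15a were slightly higher, at 0.079, 0.080 and 0.045.

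Atf4 had 6754 and 7124 normalized counts with knockdown, against 6637, 6608 and 6451 with empty vector. Both knockdown samples lay above every empty vector sample, and the log2 difference was 0.079 ± 0.070 (SE), with a limma adjusted p of 0.797. ATF4 is controlled mainly at translation, which these values do not measure.

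Trib3, a pseudokinase that feeds back on ATF4, had 353 and 362 normalized counts with knockdown, against 408, 475 and 406 with empty vector. The groups did not overlap, and the log2 difference was -0.26 ± 0.12 (SE), with -0.41 against empty vector 2 alone and a limma adjusted p of 0.606. Ddit3, which encodes the stress factor CHOP, had 383 and 376 against 485, 426 and 420, also without overlap. Its log2 difference was -0.22 ± 0.12 (SE), with -0.17 against empty vector 2 alone and a limma adjusted p of 0.653.

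Atf3, a stress-induced factor of the ATF family, had 185 and 104 normalized counts with knockdown, against 218, 211 and 180 with empty vector. Knockdown 1 lay inside the empty vector range and knockdown 2 far below it. The log2 difference of -0.54 ± 0.22 (SE; limma adjusted p = 0.565) was -0.12 without knockdown 2 and -0.95 without knockdown 1.

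Of the other regulators, Cebpb, a C/EBP partner of ATF4, had 1920 and 2502 normalized counts with knockdown, against 2462, 2364 and 2326 with empty vector, with the knockdown samples on either side of the empty vector range. Nupr1, a stress-induced nuclear protein gene, had 311 and 294 against 283, 336 and 245. Ppp1r15a, whose product GADD34 directs the removal of the phosphate from eIF2, had 745 and 636 against 682, 800 and 544. Both had small positive log2 differences, 0.080 and 0.045, that were -0.15 and -0.22 on flow cell B, where empty vector 2 was the highest of the 3 controls.

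The ATF4 targets split evenly, with 5 higher and 5 lower with knockdown and a median log2 difference of 0.00058. On flow cell B 7 were lower with a median of -0.052, and with the length trend removed 5 were lower with a median of -0.015. Their summed normalized counts were 27949 and 29390 with knockdown, against 28079, 28528 and 27734 with empty vector, so the groups overlapped.

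Asns, asparagine synthetase and a common readout of amino acid stress, had 1958 and 2098 normalized counts with knockdown, against 1868, 1798 and 2031 with empty vector, with overlap. The log2 difference was 0.096 ± 0.085 (SE), with 0.17 against empty vector 2 alone and a limma adjusted p of 0.797. Psat1, the aminotransferase of serine synthesis, had 5249 and 5878 against 5254, 4784 and 5463. The log2 difference was 0.11, or 0.22 against empty vector 2 alone (limma adjusted p = 0.768), and it was 0.025 without knockdown 2.

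The other genes of serine and one-carbon metabolism had small differences. Phgdh, the first enzyme of serine synthesis, had 4880 and 5465 normalized counts with knockdown, against 4995, 5339 and 5298 with empty vector, a log2 difference of -0.012. Shmt2 and Mthfd2, of the mitochondrial folate pathway, had log2 differences of 0.038 and 0.013, both with overlapping groups. Chac1, which degrades glutathione, had 520 and 688 against 597, 668 and 584, with the knockdown samples on either side of all empty vector samples.

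Slc7a11, the cystine-glutamate exchanger whose import feeds glutathione synthesis, stood apart within the list. It had 441 and 339 normalized counts with knockdown, against 697, 600 and 438 with empty vector. Knockdown 2 was below all controls, whereas knockdown 1 lay just above empty vector 3, so the groups overlapped. The mean was 0.674 times that of empty vector, and the log2 difference was -0.55 ± 0.19 (SE), with a 95% interval of -0.98 to -0.13 and a limma adjusted p of 0.565. It was -0.63 on flow cell B, -0.41 with the length trend removed, -0.36 without knockdown 2 and -0.74 without empty vector 3.

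The other amino acid transporter genes had small differences. Slc7a5, the large neutral amino acid transporter, had 4346 and 4388 normalized counts with knockdown, against 4314, 4161 and 4029 with empty vector, without overlap, and a log2 difference of 0.068 (limma adjusted p = 0.833). Slc3a2, the heavy chain that both Slc7a5 and Slc7a11 bind, had 3941 and 3870 against 3994, 4386 and 3537, a log2 difference of -0.019. Vldlr had 35.6 and 44.1 against 42.7, 43.0 and 36.4, and at this level its interval of -0.72 to 0.65 leaves the direction unknown.

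Set side by side, the ATF4 targets had a median 0.081 log2 units above that of the chaperones. The distance was 0.033 on flow cell B, 0.045 as a difference of means over members, and 0.068 with Atf3, Ddit3, Trib3, Nupr1 and Ppp1r15a added to the ATF4 targets. As a mean over genes of log2 values centred on each gene, the ATF4 targets were at -0.058 and 0.017 in the knockdown samples, against 0.039, 0.054 and -0.053 in the empty vector samples. Chaperone means were -0.056 and -0.039, against 0.033, 0.038 and 0.024. The chaperone values separated the groups and differed within them by an SD of 0.0094, whereas the ATF4 target values overlapped and differed by an SD of 0.056. The ATF4 target mean minus the chaperone mean was -0.0013 and 0.055 with knockdown, against 0.0065, 0.016 and -0.076 with empty vector, with overlap, so these samples do not separate the groups by the distance between the lists.

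**Figure D4:**
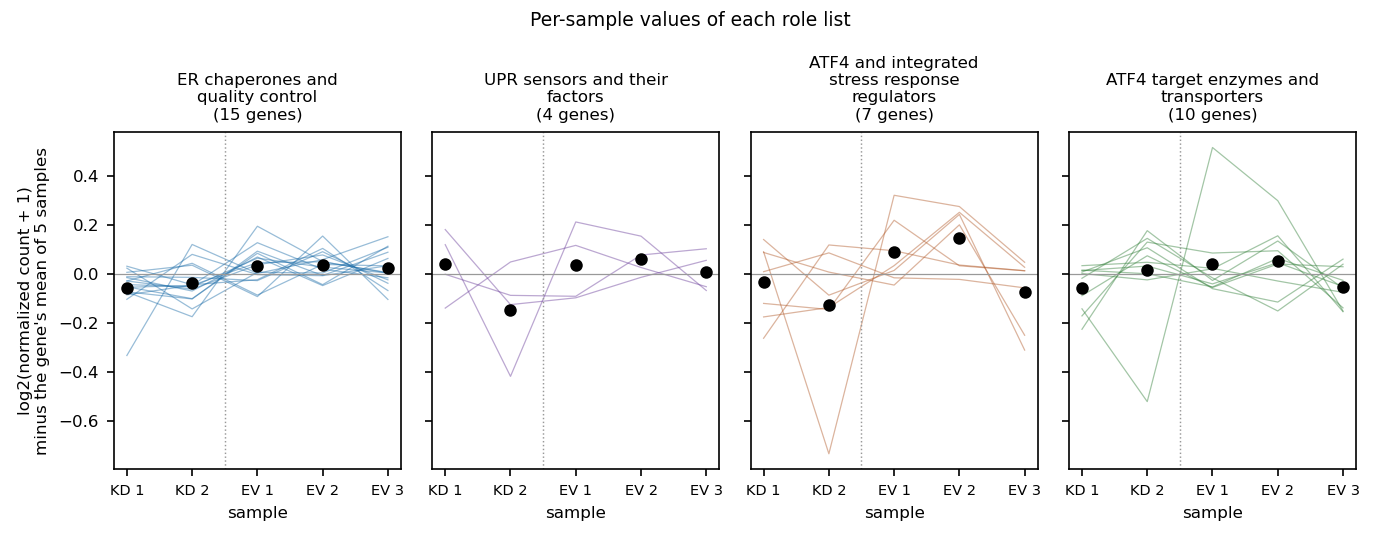
Log2(normalized count + 1) minus each gene's mean over 5 samples, for the genes of each role list (lines join the values of 1 gene) and their mean (black points), in knockdown samples (KD) and empty vector samples (EV). The chaperone means are -0.056 and -0.039 in KD against 0.024 to 0.038 in EV, while the means of the other 3 lists overlap between the groups.

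**Figure D5:**
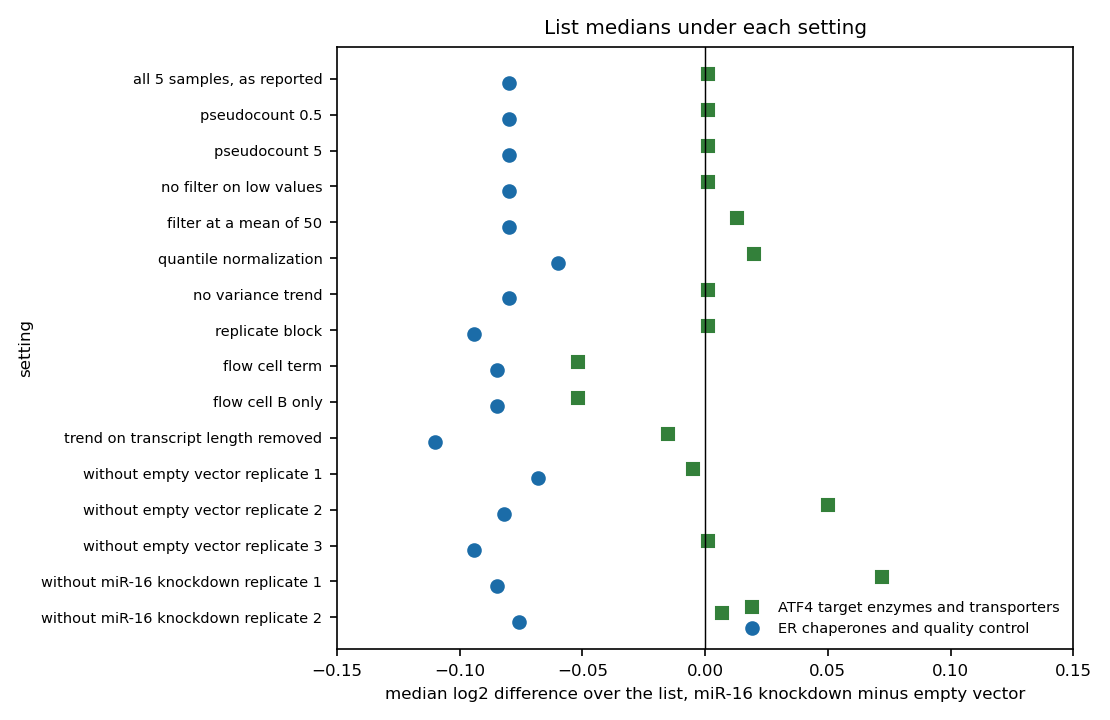
Median log2 difference, miR-16 knockdown minus empty vector, of the ATF4 target enzymes and transporters (squares) and the ER chaperones (circles) under each setting of the analysis. The chaperone median lies between -0.11 and -0.060 in every setting shown, and that of the ATF4 targets between -0.052 and 0.072, on both sides of 0.

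The members were also split by promoter element, without a test. The 7 chaperones with an ERSE were all lower with knockdown, with a median log2 difference of -0.076. Of the 6 with a promoter and no ERSE 5 were lower, with a median of -0.082. On flow cell B the order of these medians turned round, at -0.085 with and -0.055 without an ERSE. Among the regulators and ATF4 targets, 7 held a CARE core, a word chosen after the promoters had been seen. Of these, 5 were lower (Slc7a11, Atf3, Trib3, Chac1 and Vldlr) and 2 higher (Asns and Nupr1), with a median of -0.041. The 9 without one had 4 lower and a median of 0.013. The medians on flow cell B were -0.16 with and -0.055 without the core.

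Sites for miR-16 were searched in the longest annotated 3' UTR of each gene (GENCODE M21, GRCm38) as TGCTGCT, which pairs with seed bases 2 to 8, or GCTGCTA. They stood in 7 of the 36 members (19.4%), against 32.2% of tested genes with a 3' UTR. The median 3' UTR was shorter in the members, at 899 nt against 1407 nt over tested genes. The 2 shares were not corrected for this length. Ern1 held 3 sites, Hyou1, Atf6 and Slc7a11 2 each, and Pdia6, Chac1 and Psat1 1 each. The Hyou1 sites, at bases 479 and 1105 of an annotated transcript's 3' UTR, lie further apart in the genome, with an intron between them. Whether the first of them lies in the 3' UTR of other Hyou1 transcripts was not tested. The sites of Hyou1 and Slc7a11, both lower with knockdown at an unadjusted p under 0.05, and the longest match of a member, in Atf6, are shown 5' to 3' as DNA with the match in capitals.
Hyou1, chr9:44388029-44388051, plus strand: agggcctgagggTGCTGCTccag
Hyou1, chr9:44389277-44389299, plus strand: cagagaagcctgTGCTGCTttca
Slc7a11, chr3:50366485-50366507, minus strand: gaatttcattacTGCTGCTgtag
Slc7a11, chr3:50365261-50365283, minus strand: ctcttgggagagTGCTGCTgcaa
Atf6, chr1:170705864-170705887, minus strand: atttttttttttTGCTGCTAatat

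Of the 7 members with a site, 6 were lower with knockdown and 1, Psat1, was higher, with a median log2 difference of -0.074. Of the 29 without a site 19 were lower, with a median of -0.035. On flow cell B these member medians were -0.16 with and -0.082 without a site. Of all tested genes, 2054 of 3697 with a site were lower, with a median of -0.021, and 3686 of 7800 without, with a median of 0.010.

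Wider pathway lists, which hold none of the 36 genes, are given next, and none of their genes passed the adjusted threshold. Of 16 tested genes of ER-associated degradation, which returns misfolded proteins to the proteasome, 8 were higher and 8 lower with knockdown, with a median log2 difference of -0.0031. The smallest p-values belonged to Selenos at 0.19, Ube2g2 at 0.12 and Nploc4 at -0.085 as log2 differences, and none passed. Against empty vector 2 alone they were 0.15, -0.023 and -0.033, so Ube2g2 turned its sign. Of 24 further ER folding enzymes 9 were higher and 15 lower, with a median of -0.017. They were led by Erp29, a chaperone of the isomerase family, at 0.26, Uggt1, the glucosyltransferase that senses misfolded glycoproteins, at -0.14, and the cyclophilin Ppib at 0.14. Against empty vector 2 alone these were 0.062, -0.096 and 0.030.

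The translocon genes mostly had higher means with knockdown. Of 21 genes of the translocon, the signal peptidase and the signal recognition particle, 15 were higher and 6 lower, with a median log2 difference of 0.048. The median was 0.045 on flow cell B and 0.0040 without knockdown 2. The channel subunits Sec61g and Sec61b had log2 differences of 0.38 and 0.26, and Ssr4 of the translocon-associated complex 0.23, each at an unadjusted p under 0.05 by limma (adjusted p of 0.565, 0.597 and 0.565), where 2.83% of tested genes were higher at that level. On flow cell B these were 0.12, 0.033 and 0.13, with knockdown and empty vector 2 close together.

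Upstream and downstream of ATF4 the picture was mixed. Of 15 genes of the eIF2 kinases, eIF2 and eIF2B, 8 were higher and 7 lower, with a median of 0.014. Eif2b2 and Eif2s1, subunits of eIF2B and eIF2, had log2 differences of 0.20 and 0.14, and Eif2ak4, which encodes the amino acid sensor GCN2, -0.25. Against empty vector 2 alone these were 0.090, 0.037 and -0.18. Of 21 further ATF4 targets 11 were higher and 10 lower, with a median of 0.014, and -0.052 on flow cell B. In 7 of the 21 (33.3%) both knockdown samples lay below all empty vector samples, against 12.4% of tested genes, without a test.

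The 3 further ATF4 targets with the smallest p were all lower with knockdown, at adjusted p of 0.565 to 0.597 by limma. Sesn2, which restrains mTORC1 when leucine is short, had 397 and 333 normalized counts with knockdown, against 501, 433 and 433 with empty vector. Gadd45a, a growth arrest gene, had 226 and 213 against 299, 296 and 245, and Aldh1l2, of mitochondrial folate metabolism, had 742 and 796 against 863, 846 and 990. All 3, named for their smallest p, had both knockdown samples below every empty vector sample, where 12.4% of tested genes did so. With 1 sample left out, the median of the further ATF4 targets ranged from -0.057 to 0.021, and that of the eIF2 list from -0.0051 to 0.043. Among 8 membrane-bound stress factors and their proteases, 3 were higher and 5 lower with a median of -0.018, and Creb3l2 had -0.25, Wfs1 -0.21 and Creb3 0.19 as log2 differences.

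The authors' deposited tables, which compare inhibition with control, give an adjusted p under 0.05 to 70 of 6588 genes and to 0 of the members. Of the 36 members, 28 have an adjusted p in the authors' deposited tables, and the smallest is 0.0546 for Slc7a11, at a ratio of 0.673. Hyou1 follows in the authors' deposited tables with a ratio of 0.865 and an adjusted p of 0.157. Unadjusted p-values under 0.05 belong to 4 members in the authors' deposited tables, again Hsp90b1, Hyou1, Atf3 and Slc7a11, where 1089 of their 11488 genes with a p do (9.48%).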

How the data were processed

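RNA was harvested with TRIzol and sequenced by NovoGene, per the labels' protocols. The values deposited by the authors are a signal for each gene, which looks like read counts scaled by 1 size factor for each sample. The submitters' processing notes name STAR, Partek, DESeq2 1.34.0 and build mm9. Tool roles, strand setting, annotation and filters were not given in the sources used here. The authors' deposited comparison table gives p-values, adjusted p-values and a linear ratio per gene, per the file headers, and these were copied.

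Low values were compared with whole multiples of 1 read. Of values up to 100 reads, 88.4% to 89.2% per sample were whole within 0.02 reads, so whole reads were not recovered, no count model was fitted, and the limma fit foreseen for normalized values applied. Depth was estimated from the total and the value of 1 read. All 10 sample pairs differed beyond counting noise, with a median chi-square of 1.63 to 4.02 over genes where noise gives 0.455. The lowest, 1.63, was between knockdown 1 and empty vector 2, both on flow cell B. The knockdown pair had 2.16, the empty vector pairs had 2.13 to 2.91, and knockdown 2 against empty vector 2 had 2.62.

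Genes with a mean of at least 10 normalized counts, 11990 of 12615, were fitted as log2(value + 1) with limma 3.58.1 in R 4.3.3, with variance trend and robust estimation, two-sided, with Benjamini-Hochberg adjustment over all of them and a threshold of 0.05. The 36 members, their role lists and the wider pathway lists were chosen with earlier results of these data known, so lists are described by counts and medians without a test. Members are named throughout, with the 3 genes of smallest p of each wider list. Transcript lengths came from GENCODE M21 for 12471 genes (98.9%). The length trend was removed per sample as a linear fit on log2 length. The fit was tested on simulated data.

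The labels' replicate numbers pair only 2 samples of each group, and nothing says that they mark a shared culture, so the samples were treated as unpaired. Deviations of same-numbered samples had r of 0.0864, the highest of any pair across the groups, and 0.0286. The deviations of 2 knockdown samples from their mean mirror each other, so these r values can neither show nor exclude pairing. Alternatives covered the pseudocount, the filter, quantile normalization, the variance trend, a replicate block, flow cell, transcript length, and each sample left out. Coordinates of promoters and sites are of the reference annotation, and the build of the deposited values was not needed for them.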

Additional observations from a re-analysis of the deposited data

How the results depend on the processing

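The log2 differences of 16 of the 36 members kept their sign under all 15 alternatives, and 20 changed it under at least 1. The cause was not tested. Genes past the threshold numbered 0 in the reported fit and 311 with the replicate block (62 higher, 249 lower), and 0 to 107 with 1 sample left out (28 without empty vector 2, 107 without knockdown 1). With the replicate block, which leaves 1 residual degree of freedom and gives empty vector 3 no weight, 2 members passed, Hyou1 (adjusted p = 0.0303) and Slc7a11 (adjusted p = 1.35e-06), and the shared numbers are no evidence of pairing. The chaperone median of -0.080 became -0.060 with quantile normalization, -0.094 with the replicate block and -0.11 with the length trend removed, and ranged from -0.094 to -0.068 with 1 sample left out. With 1 sample left out, the ATF4 target median ranged from -0.005 to 0.072, its count of lower members from 1 to 5, and the ATF4 target median minus the chaperone median from 0.063 to 0.16. With the flow cell term these were -0.052, 7 and 0.033, and as a difference of means over members the last was 0.045. A flow cell term, or flow cell B alone, gave 0.005 for Canx, -0.031 for Dnajb11, -0.13 for Manf, -0.15 for Nupr1, -0.22 for Ppp1r15a, -0.023 for Shmt2 and -0.055 for Mthfd2. The replicate block gave -0.010 for Manf, -0.030 for Nupr1, -0.10 for Ppp1r15a and 0.000 for Phgdh. Removing the length trend gave -0.013 for Dnajb11, -0.005 for Manf, 0.036 for Atf6, -0.036 for Mthfd2 and 0.088 for Vldlr, and quantile normalization gave 0.004 for Creld2. With 1 sample left out, the range was -0.044 to 0.020 for Pdia6, -0.11 to 0.072 for Dnajb9, -0.029 to 0.048 for Dnajb11, -0.40 to 0.050 for Sdf2l1, -0.048 to 0.040 for Creld2, -0.010 to 0.12 for Manf, -0.17 to 0.019 for Xbp1 and -0.52 to 0.020 for Ern1. It was -0.11 to 0.20 for Eif2ak3, -0.030 to 0.20 for Nupr1, -0.10 to 0.18 for Ppp1r15a, -0.31 to 0.070 for Cebpb, -0.24 to 0.16 for Chac1, -0.094 to 0.069 for Phgdh, -0.011 to 0.048 for Mthfd2, -0.10 to 0.055 for Slc3a2 and -0.19 to 0.12 for Vldlr. The other alternatives, with pseudocounts of 0.5 and 5, no filter, a filter at a mean of 50 or no variance trend, changed no call and no sign of a member they tested. A count test on whole reads was not run, since whole reads were not recovered. With 2 and 3 samples a difference must exceed the spread of these few values, and at the level of Vldlr the interval is widest.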
